A study of Mus musculus with 2 samples.

Results

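The loci described here carry provisional mouse names. A name of Gm and a number marks a predicted gene, and a name that ends in Rik marks a transcript first known from a RIKEN cDNA clone. Every row of the site list with such a name was taken, except the 2 sites of C130071C03Rik. This gave 1059 of 17755 sites (5.96%) and 727 of 6929 gene names (10.5%). Of these, 722 sites lay in 536 Gm loci and 337 sites in 191 Rik loci. The choice used names only, and no editing value entered it.

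The sites come from nuclei of mouse cortex that were stained for NeuN, the neuronal nuclear protein, and flow-sorted. The mice carried APOBEC1-YTH, a cytidine deaminase fused to a domain that binds N6-methyladenosine (m6A), and both libraries, the only group of the series, came from such mice after tamoxifen. They were 10 weeks old at the first dose and received 20 mg/kg every 24 hours for 5 days, and cortex was collected 7 days after the final one. Ethanol at 50% served as the fixative for the nuclei. The libraries were made with a stranded total RNA kit per the labels' protocol, while another label calls the RNA polyadenylated. The labels do not name the promoter or cell type that drives the transgene, nor say whether a library came from 1 animal. The authors deposited 1 list for the 2 libraries, with 1 editing level per site, the fraction of reads in which a C was read as T, given here in percent. It holds no read depth and no values per library, so depth is unknown, no spread between the libraries can be given, and no difference below has a test. Of 9 neuronal marker genes checked, 6 had sites and Rbfox3 (which encodes NeuN), Gad1 and Gad2 had none, while 17 of 18 markers of astrocytes, oligodendrocytes, microglia and vessels had sites. These markers were chosen with earlier results of these data known, so the counts do not show the make-up of the nuclei. The cell type behind a site in a Gm or Rik locus was not tested.

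m6A is set on nascent RNA by the METTL3 and METTL14 writer complex, mostly at an adenosine that is followed by a cytidine, and it is read by proteins with a YTH domain. It occurs in mRNAs and in long noncoding RNAs, Xist being the best known example. APOBEC1-YTH converts cytidines near the bound m6A to uridines. Nuclear RNA also contains unspliced introns, antisense transcripts and transcripts started in the opposite direction at promoters. Such RNA is where many provisional names come from.

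The names covered several kinds of locus. In RefSeq's genes on GRCm38.p6 (mm10), 266 loci matched by symbol and 7 by a synonym whose gene span held all of their sites. The matched loci comprised 178 long noncoding RNAs with 264 sites, 78 protein-coding genes with 174 sites, 7 pseudogenes with 12 sites, 2 transcribed pseudogenes with 3 sites, 3 small nuclear RNAs, 2 small nucleolar RNAs, 1 guide RNA, 1 miscellaneous RNA and 1 microRNA. The other 454 loci, with 597 sites, had no match in the table. Several matched loci are known under other names. The synonyms gave Norad, a cytoplasmic and nuclear RNA that binds PUMILIO proteins, for 2900097C17Rik, and Chaserr, a noncoding RNA transcribed beside Chd2, for 1810026B05Rik. They also gave Elapor2 for 9330182L06Rik, Garre1 for 4931406P16Rik, Cracdl for 2010300C02Rik and Nedd4 for Gm7265.

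The sequence around a site could be read where the site fell into a RefSeq promoter window (250 bases before to 50 after a transcript start) or a microRNA hairpin of the same build. This was so for 31 of the 1059 sites, and in each of the 31 the base on the listed strand was a C, as it was for all 231 other sites that could be read. The listed strand is thus the strand whose C was converted. The windows below show 12 bases on each side, 5′ to 3′ on the listed strand, with the edited C as the only capital. The first 3 are those complete windows in which GAC or AAC ends at the edited C. The next 4 are the complete windows with the highest levels opposite the promoter of a coding gene. The last 3 lie in the promoter window of a Gm or Rik locus on its own strand.
Gm13905, chr2:101882989-101883013, plus strand: atgccatgttgaCagccccgaggac
1700071M16Rik, chr17:43591483-43591507, minus strand: aaaccaagggaaCctcttctaataa
Gm7265, chr9:72693236-72693260, plus strand: acacttggggaaCgtcaatctcggg
Gm11423, chr11:82780992-82781016, minus strand: gtccctgaacttCctagagtttctc
4930537H20Rik, chr3:90293891-90293915, minus strand: cagtgcagggagCggcccccgcacc
A430108G06Rik, chr11:53567120-53567144, minus strand: agtggacaatagCgtaccagattct
Gm4419, chr12:21417482-21417506, plus strand: ccagagctgtgtCcgcactcacctt
Gm16759, chr9:63399126-63399150, plus strand: ggcgcggggcttCgggcgggaggcg
1810010H24Rik, chr11:107025889-107025913, plus strand: caaaaatgacagCtcgagccctctg
A330076H08Rik, chr7:61982345-61982369, minus strand: atagaatttctgCcagtcaggctcc

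An A stood directly before the edited C in 8 of 31 sites (25.8%). The share was 15.7% for the other sites with a readable base (36 of 230) and 18.2% for all cytidines of the promoter table on both strands. GAC or AAC ended at the edited C in 4 of 31 sites, and in 20 of 231 other sites. Anywhere in the 25-base window, on the site's strand, GAC or AAC occurred in 11 of 28 complete windows (39.3%), against 90 of 205 (43.9%) for other sites and 43.8% of all 25-base windows centred on a C in the table. The shares in the windows were thus close to the background of promoter sequence, and the readable sites are only those near transcript starts. Levels in the windows shown were 3.28% in Gm13905, 4.08% in 1700071M16Rik and 7.14% in Gm7265, where GAC or AAC is present at the edit. They were 18.2% in Gm11423 and 4930537H20Rik, 13.3% in A430108G06Rik, 11.1% in Gm4419, 23.1% in Gm16759, 14.3% in 1810010H24Rik and 3.92% in A330076H08Rik, where it is not. Readable sites not shown, also without GAC or AAC at the edit, ran from 1.49% in Gm49521 to 18.2% in A230005M16Rik. The windows shown therefore do not compare levels with and without it.

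Sites in Gm and Rik loci had higher listed levels than the other sites of the list. Their median was 6.06% (quartiles 2.93% and 11.8%), against 3.57% (1.98% and 6.67%) for the 16696 others. Gm and Rik loci were alike in this, with medians of 6.06% and 5.88%. A level of at least 10% was listed for 329 sites (31.1%), where the share over the whole list was 14.9%, and a level of at least 20% for 60 sites (5.67%), where it was 2.02%. Levels under 2% were listed for 156 sites (14.7%), where the share over the whole list was 24.6%. By class, the median was 6.52% in loci with no match, 5.56% in long noncoding RNAs and 4.76% in protein-coding genes, while protein-coding genes of other names had 3.57% and long noncoding RNAs of other names 2.94%. The lowest level a site can have and still be called depends on its read depth. Whether depth differed between these loci and other genes was not tested.

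**Figure D1:**
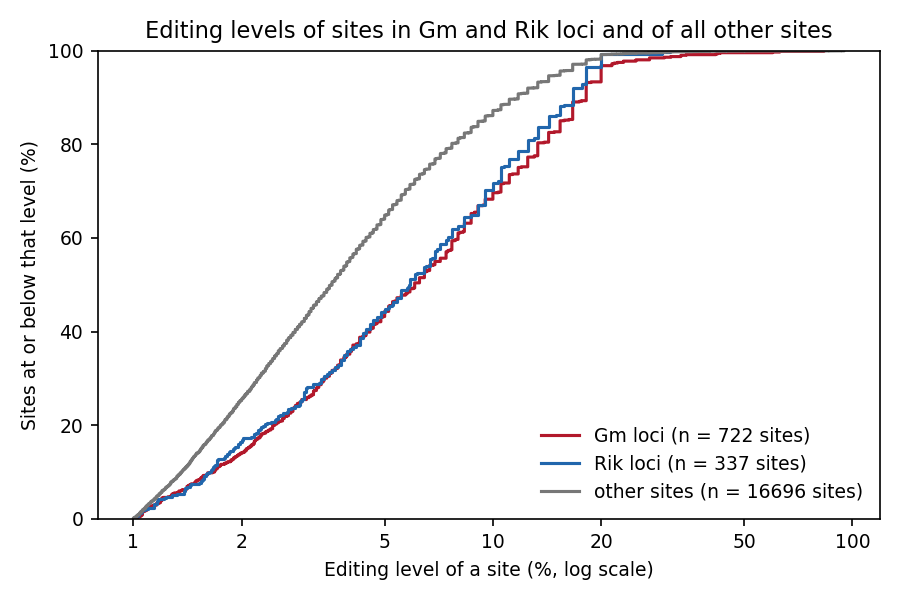
Cumulative share of sites (y axis, %) at or below each editing level (x axis, %, log scale) for Gm loci, Rik loci and all other sites. The Gm and Rik curves run together, with medians of 6.06% and 5.88%, to the right of the curve of other sites, with a median of 3.57%.

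Most of the loci had a single site. That was the case for 558 of 727 (76.8%), where the share over all gene names was 49.2%. At least 5 sites were listed for 16 loci (2.20%), against 921 of 6202 other genes (14.9%). In both sets, levels were lower where a gene had more sites. Loci of 1 site had a median of 8.33% and other genes of 1 site 5.71%. With 2 to 4 sites the medians were 4.44% and 4.08%, and with 5 or more they were 2.86% (122 sites) and 2.67% (7403 sites). The gap between the sets was therefore widest among single-site loci and small among loci with many sites. Another site of the same locus lay within 100 bases for 134 of 1059 sites (12.7%), where the share over the whole list was 22.8%. A single-site locus cannot have one. With 2 to 4 sites the share was 22.4%, against 17.5% in other genes, and with 5 or more it was 40.2%, against 37.7%, so at like site number close sites were no less frequent in Gm and Rik loci.

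**Figure D2:**
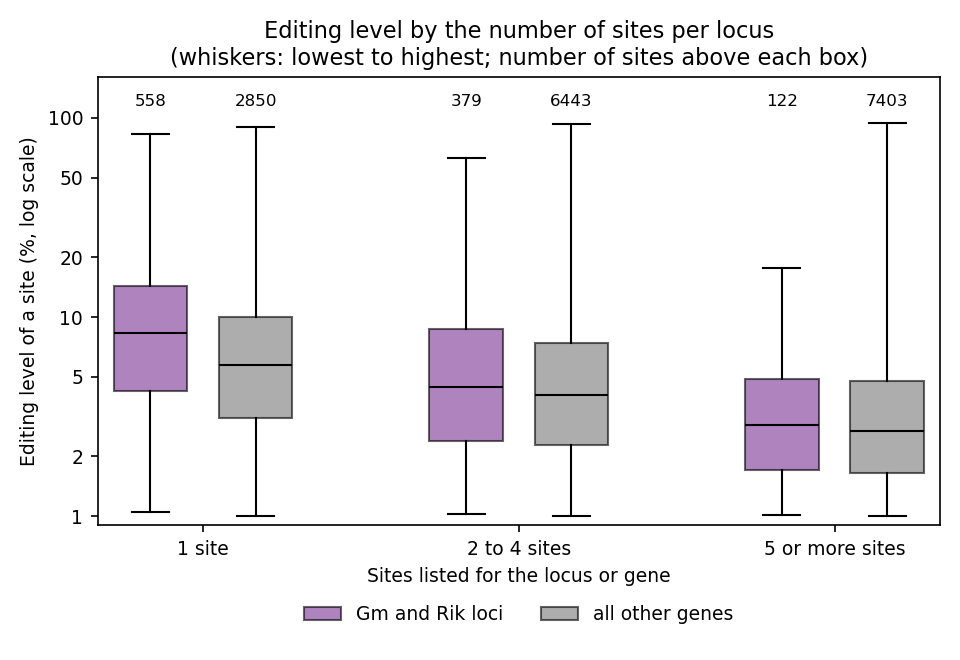
Editing level per site (y axis, %, log scale) for Gm and Rik loci and for all other genes, by the number of sites of the locus (x axis). Boxes show the quartiles and the median, whiskers the lowest and highest site, and the medians are 8.33% and 5.71% at 1 site and 2.86% and 2.67% at 5 or more.

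Among the coding members, 4932438A13Rik came first with 13 sites. RefSeq lists it also as Kiaa1109 and Tweek, a very large protein of lipid transfer between membranes. Its span is chromosome 3, 36863063 to 37053033, and the sites lay from 236 bases after the 5′ end to 6720 bases before the 3′ end. Their levels ran from 1.14% to 4.88% with a mean of 2.73% ± 1.32 (SD across sites), and 0 of the 13 lay in the last 5 kb. 2610507B11Rik, listed also as Kiaa0100 and coding for a relative of that protein (chromosome 11, 78261650 to 78290625), had 11 sites at 2.39% ± 1.31 (SD across sites). Its highest levels, 4.35% and 4.76%, were the 2 sites nearest to the 3′ end, 229 and 96 bases from it, and the third was 3.17%, 180 bases from the 5′ end. Both large genes thus had low levels along their whole length.

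Over all coding members, 83 of 171 sites inside a span (48.5%) lay in the last 5 kb, against 49.6% in coding genes of other names, and single loci differed. 0610012G03Rik, a span of chromosome 16 from 31947050 to 31948505, had 5 sites of nearly one level, 6.06%, 6.67%, 6.90%, 7.14% and 7.14%. 2510009E07Rik had 5 sites in the last 5 kb of a span from 21649045 to 21694665 on the same chromosome, and they ranged from 4.08% to 14.99%. The sites of 4833439L19Rik, listed also as P33monox, were at 6.90%, 3.77%, 4.65% and 5.12% in the last 5 kb and at 2.67%, 3.39% and 3.92% further up. 1810013L24Rik had 5 of 7 sites in that stretch, among them its highest, 10.0%, and a pair at 2.60% and 5.84% just inside the 5′ end. 9930021J03Rik, listed also as Kiaa2026, had its highest sites toward both ends, 10.3% at 91583 bases and 9.52% at 1827 bases from the 3′ end, with 4.26%, 4.44% and 6.67% between them. 2900026A02Rik, listed also as Kiaa1671, had 20.0%, 16.7%, 4.35% and 6.06%. Gm13889 had 3 sites within 47 bases (4.26%, 8.0% and 3.57%) and 1 more at 9.09%. The 3 sites of 2310011J03Rik were at 9.09%, 14.3% and 10.5%. Gm973 and 4930402H24Rik were low, with 6 sites from 1.01% to 3.51% and 5 sites from 1.14% to 4.44%.

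**Figure D3:**
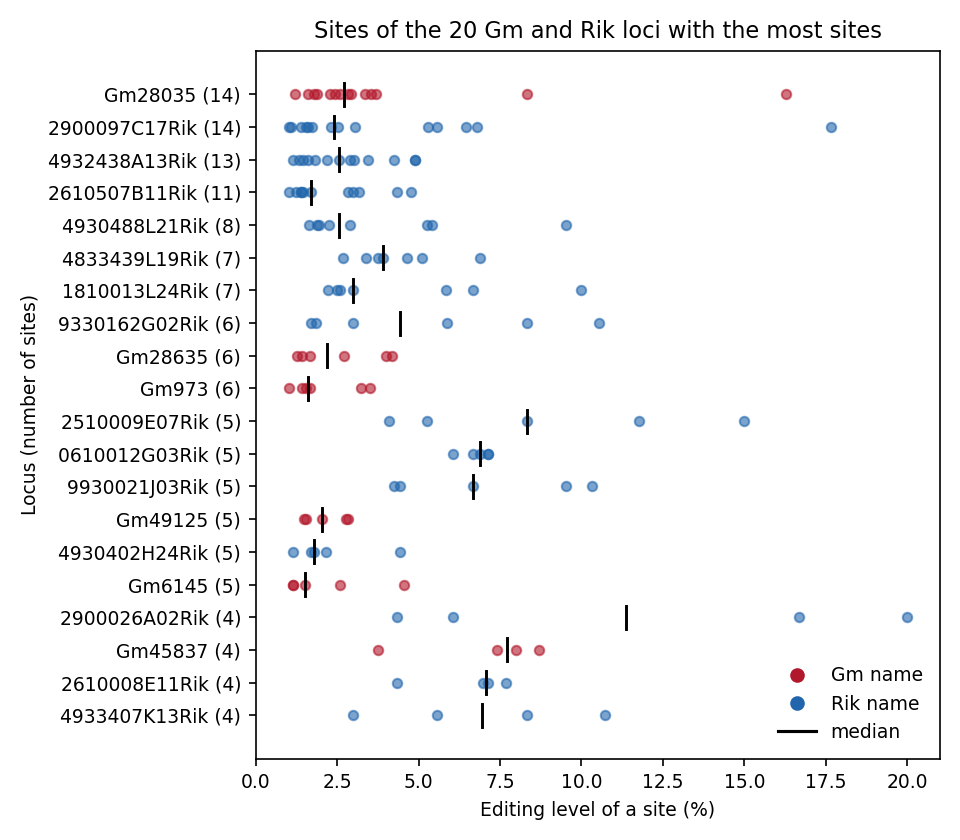
Editing level (x axis, %) of every site in the 20 Gm and Rik loci with the most sites (y axis, number of sites in parentheses). Points are sites and black bars medians, which run from 1.5% in Gm6145 to 11.4% in 2900026A02Rik.

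Norad led the noncoding members. Listed as 2900097C17Rik, it had 14 sites in a span of chromosome 2 from 156388063 to 156392979. From the 3′ end upwards they were at 2.30%, 2.52%, 1.39%, 1.08%, 5.56%, 3.04%, 6.78%, 17.7%, 6.45%, 1.55%, 1.03%, 1.72%, 5.29% and 1.62%. The highest site stood at position 156391359, in the middle part of the RNA, and the 2 next to it upstream and downstream of it were at 6.45% and 6.78%. The site nearest to an end was 684 bases from the 5′ end, and 5 sites lay between 156392177 and 156392295. The nearest site of a conventionally named gene was 76459 bases away, on the opposite strand. The levels of this RNA thus peaked at 1 site, with 9 of the other 13 at 3.04% or less.

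Other long noncoding members had fewer sites. Over the 264 sites of the class the median was 5.56%, and most of the loci named here had lower medians. 4930488L21Rik had 8 sites from 1.65% to 9.52%, of which 1 lay inside its RefSeq span. Its site at 9.52% and the next, at 1.89%, lay opposite to Gnao1, the gene of the G protein alpha subunit o. Gm6145 had 5 sites from 1.16% to 4.55%, and 1700071M16Rik 4 sites from 1.71% to 11.8%. B930095G15Rik, which lies inside the RhoGEF gene Farp1 on the same strand, had 4 sites from 1.06% to 4.0%. The 4 sites of 4933407K13Rik on chromosome X were higher, from 2.99% to 10.7%, and so were the 3 sites of A830082K12Rik, at 6.06%, 9.52% and 11.8%, the first of which was 3452 bases from a site of Nr2f1, the gene of a cortical patterning factor. The single site of Chaserr was at 1.57%.

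**Figure D4:**
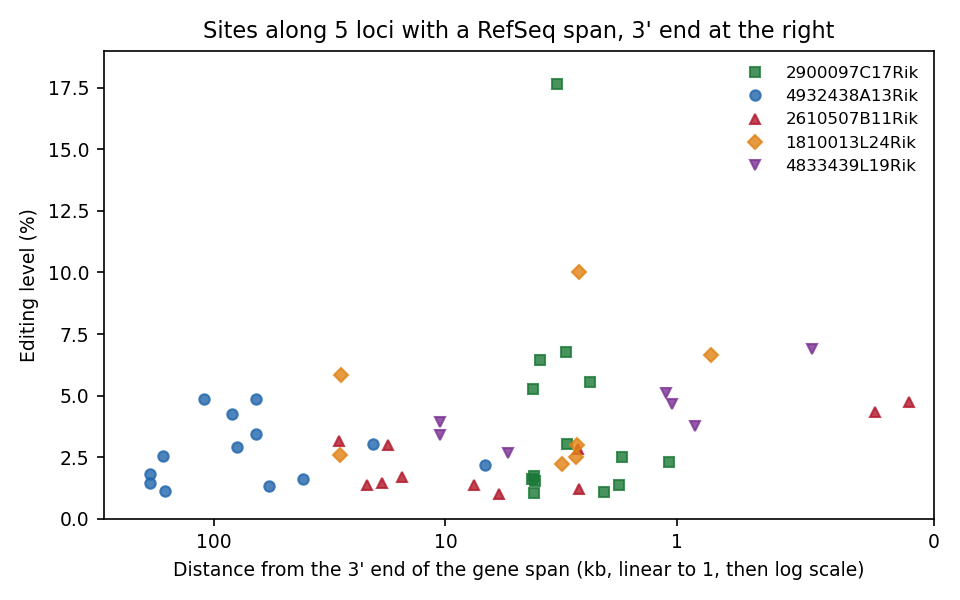
Editing level (y axis, %) against distance from the 3′ end of the RefSeq span (x axis, kb, linear to 1 kb and then log scale, 3′ end at the right) for 2900097C17Rik (Norad), 4932438A13Rik, 2610507B11Rik, 1810013L24Rik and 4833439L19Rik. The highest point is the 17.7% site of Norad, while no site of 4932438A13Rik lies within 5 kb of the end or exceeds 4.88%.

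Position was read from the RefSeq span of each locus. Of the 406 sites inside a RefSeq span, 239 (58.9%) lay within 5 kb of the 3′ end and 92 (22.7%) within 1 kb of the 5′ end, against 49.5% and 7.68% of other sites. The spans were shorter, with a median of 13406 bases against 34307. In spans of 20 kb or more, where an end is only a small part, 35.8% of 187 sites were in the last 5 kb, against 41.6% of 12563 others, and 9.09% were in the first 1 kb, against 6.01%. The share in the first 1 kb was also above that of other sites in shorter spans, at 18.0% against 9.55% between 5 and 20 kb and 57.1% against 27.2% at 5 kb or less. Sites in the last 5 kb had a median of 6.45%, and those further up 4.26%. Span length is mixed into this contrast. In spans of 5 kb or less, where every site counts as in the last 5 kb, the median was 7.14%. It was 5.26% between 5 and 20 kb and 4.65% at 20 kb or more, and other sites had 3.92%, 3.92% and 3.41%. Position and span length were not separated for levels.

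Many of the loci lay inside a coding gene of conventional name. On the same strand this held for 294 sites in 215 loci, which had the highest median, 7.69%. A further 333 sites in 264 loci lay inside a coding gene on the opposite strand only (median 5.71%). In no other coding gene lay 409 sites in 236 loci (median 5.26%), and for 23 sites the gene's strand was not known. Of the other 16696 sites, 117 lay inside a second coding gene on the same strand and had a median of 3.78%. On the opposite strand only there were 457 (median 4.88%), and 16048 lay in no other coding gene (median 3.51%). No position was listed more than once, so each site stands under 1 name, and for a locus on the same strand as its host the name does not tell whose RNA was edited. In 169 pairs of a locus and a host on the same strand, both had sites. The locus had the higher median in 126 pairs and the lower in 43, with a median over pairs of 8.70% for the loci and 3.32% for the hosts. The loci in those pairs had a median of 1 site and the hosts of 3, and single sites were higher throughout the list.

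The locus with the most such sites was Gm28035, all of whose 14 sites lay within Lrrc8a, a subunit gene of the volume-regulated anion channel (chromosome 2, 30237769 to 30263790). Of these, 6 sites from position 30255364 to 30257140 were at 1.20% to 2.60%. The other 8, from 30262150 to 30262416, were at 2.82%, 3.37%, 2.94%, 2.27%, 3.53%, 3.70%, 8.33% and 16.3%, with the 2 highest nearest to the 3′ end of Lrrc8a and 6 bases apart. Lrrc8a itself was listed with 1 site at 1.56%, 17597 bases from the nearest of them. Gm28635 had 6 sites from 1.27% to 4.17% inside Ctnnd1, the gene of p120 catenin, which had 1 site of its own at 3.12%. Gm49125 had 5 sites from 1.48% to 2.82% within 991 bases of Ddhd1, a phospholipase gene with 3 sites of its own and a median of 2.24%. These 3 loci thus held more sites than their host genes did.

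Of the 185 host genes, 173 held 1 provisional locus on their strand and 12 held 2 or more. Adgrb3, an adhesion G protein-coupled receptor gene (chromosome 1, 25067476 to 25834772), held 10 loci with 14 sites on its strand. Their levels ran from 2.22% in Gm37602 to 27.3% in Gm38260, and the 3 sites named Adgrb3 had a median of 6.45%. Ank2, the gene of ankyrin-B (chromosome 3, 126921607 to 127500347), held 7 loci with 9 sites. These ran from 2.50% in Gm42971 to 18.2% in Gm43322, with a median of 12.5%, while the 27 sites named Ank2 had a median of 1.61%. Auts2, a neurodevelopmental regulator gene, held 7 loci with 8 sites from 2.7% in Gm43186 to 13.3% in Gm43018, and 4 sites of its own with a median of 5.13%. In Phlpp1, a phosphatase gene with 8 sites at a median of 1.52%, the 3 sites of Gm38235 were at 7.69%, 9.38% and 8.70% within 39 bases. The highest median of any Gm or Rik locus with at least 3 sites was that of Gm43080 inside Mccc1, at 18.2%, 20.0% and 5.88%. The medians of the provisional loci were thus above those of the host in Ank2, Auts2, Phlpp1 and Mccc1, and near that of the host in Adgrb3. Gm43080 was named for its high median, so its place above Mccc1 is no separate support. The locus was lower in 43 of the 169 pairs, among them Gm43481 (5.49% against 14.1% in Gtf2i) and Gm29427 (2.17% against 9.52% in Pfkfb2).

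A neighbouring site of a conventionally named gene on the same strand was within 10 kb for 98 sites (9.25%), against 3.03% of other sites measured to a gene of another name. The share was 11.9% in Gm loci, 3.56% in Rik loci and 3.46% in RefSeq-matched loci, the last 2 near that of other sites. Inside a coding gene on the same strand it was 21.8%, against 19.7% of other sites so placed. A neighbour was within 1 kb for 8 sites (0.755% against 0.0599% of other sites). For sites inside a coding gene on the same strand these shares were 2.04% and 1.71%. The 8 were all in Gm loci. The closest was Gm20427 at 4.65%, 191 bases from a site of H2-Ke6 at 7.41%. Gm7265 at 7.14% stood 222 bases from a site listed as Nedd4, a ubiquitin ligase gene, at 4.76%. RefSeq gives Gm7265 as a synonym of Nedd4, so this pair lies in the same gene under different names. Gm49909 at 4.04% stood 277 bases from Myl12b at 5.41%, and Gm20537 at 5.13% stood 460 bases from Syncrip, an RNA-binding protein gene, at 5.71%. Gm50364 at 2.78% was next to Hdhd2 at 8.70%, Gm20671 at 8.11% to Prr14l at 4.26%, and Gm44864 at 20.0% to Akip1 at 11.8%. Neither side was regularly the higher: the provisional locus was higher in 3 of these 7 pairs, and in 4 of all 8.

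On the opposite strand the neighbours came closer. A site of a conventionally named gene lay within 10 kb for 180 sites (17%), against 6.98% of other sites. It lay within 200 bases for 23 sites (2.17% against 0.210%) and within 50 bases for 13 sites (1.23% against 0.0898%). Among sites inside a coding gene on the opposite strand only, the shares were close, at 40.5% against 42.0% within 10 kb and 6.01% against 4.81% within 200 bases. Within 50 bases they were 3.30% and 1.97%. Over the 23 pairs the median level was 2.63% on the provisional side and 2.15% on the named side, and over the 13 pairs 2.13% and 2.15%. Several close pairs had low levels on both strands. Gm17092 at 1.74% was 1 base from a site of Hnrnpd, the gene of an RNA decay factor, at 1.16%. Gm12359 at 1.06% was 4 bases from Casc3, an exon junction complex gene, at 1.0%. 4930404A12Rik at 1.92% was 18 bases from the proton pump gene Atp6v0a2 at 2.15%. Gm15991 at 1.57% was 24 bases from Psd3 at 1.68%, and Gm26918 at 2.63% was 44 bases from the active zone gene Pclo at 3.51%. Gm49338 differed, with 17.4% and 13.04% beside 3.39% in Bace1, the beta-secretase gene, 14 and 25 bases away. So did Gm48796, with 6.67% beside 2.15% in Jam3. Whether reads of one strand entered the level on the other was not tested.

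**Figure D5:**
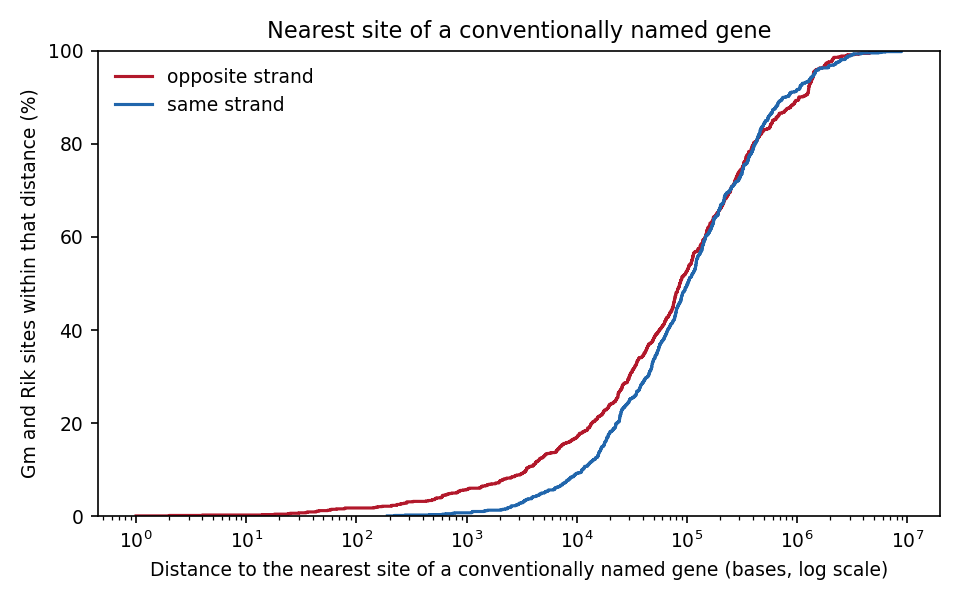
Share of the Gm and Rik sites (y axis, %) whose nearest site of a conventionally named gene lies within a given distance (x axis, bases, log scale), on the same and on the opposite strand. The opposite-strand curve starts at 1 base and the same-strand curve at 191 bases, and at 10 kb they stand at 17% and 9.25%.

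A well known antisense region was among them. 9330162G02Rik lay on the strand opposite to Ube3a, the ubiquitin ligase gene that is silenced on the paternal copy in neurons by an antisense transcript running from Snhg14. Its 6 sites were at 1.85%, 1.71%, 10.5%, 8.33%, 2.99% and 5.88%. The fifth, at position 59247198 of chromosome 7, was 2 bases from a Ube3a site at 4.11%. From there to position 61982357 the minus strand held 3 more noncoding loci, A230006K03Rik with 1 site at 3.28%, A230057D06Rik with sites at 9.09%, 4.55% and 1.79%, and A330076H08Rik with sites at 13.3% and 3.92%. The 12 provisional sites of the stretch had a median of 4.24%. These 3 loci lay at its far end from Ube3a. A230057D06Rik was 1927982 bases from the nearest same-strand site of a conventionally named gene, Snrpn. Whether the 3 belong to the transcript antisense to Ube3a was not tested.

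Sites opposite to a promoter were also seen. For 14 sites in 14 loci (1.32%) the site lay in the promoter window of a conventionally named gene on the other strand, against 43 of the 16696 other sites (0.258%). Their median level was 6.45%, with a range from 1.49% to 18.2%, against a median of 4.26% for the 43 others. The loci and their partner genes were Gm11423 and Lig3 (a DNA ligase), 4930537H20Rik and Gatad2b, A230005M16Rik and Bmyc, A430108G06Rik and Kif3a (a kinesin), Gm4419 and Ywhaq (a 14-3-3 protein), Gm43254 and Ppa2, and F730043M19Rik and Atxn7l1. The list went on with Gm26588 and Mgll, A430027H14Rik and Kcnk2 (a leak potassium channel), A230072C01Rik and Uxt, Gm9856 and Tmem42, Gm13905 and Prr5l, 4930505N22Rik and Armh3, and Gm49521 and Dnm1l (a mitochondrial fission gene). The first 3 had sites at 18.2% and Gm49521 had the site at 1.49%. Gm and Rik sites also lay more often inside a coding gene on the opposite strand only, 333 of 1059 against 457 of 16696. The promoter share was not counted among sites of like placement.

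Some provisional loci are transcripts around microRNAs. A RefSeq hairpin on the same strand lay within 5 kb for 24 sites in 17 loci (2.27%), with a median level of 2.56%, against 1.61% of other sites, with a median of 2.63%. For 9 arms of these hairpins the mature sequence is shown with the seed, bases 2 to 8, in capitals. The 3 let-7 members share the seed GAGGUAG, and the 2 miR-29 members share AGCACCA.
mmu-let-7a-5p: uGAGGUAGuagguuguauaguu
mmu-let-7f-5p: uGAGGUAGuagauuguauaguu
mmu-let-7d-5p: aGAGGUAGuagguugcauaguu
mmu-miR-29b-3p: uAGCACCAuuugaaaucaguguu
mmu-miR-29c-3p: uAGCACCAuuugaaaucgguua
mmu-miR-125b-5p: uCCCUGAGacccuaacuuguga
mmu-miR-9b-5p: uUCGGUUAucuagcuuuauga
mmu-miR-344g-5p: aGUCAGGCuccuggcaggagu
mmu-miR-138-5p: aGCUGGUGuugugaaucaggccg

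Gm28119 had 3 sites after the hairpin of Mir125b-1, which gives the abundant brain microRNA miR-125b. They lay 16, 30 and 190 bases after its 3′ end, at 2.25%, 2.37% and 1.87%. Gm25641, the locus of miR-9b on the strand opposite to Mir9-1, had sites 7 and 24 bases after its hairpin, at 1.82% and 1.33%. Gm38431 had a site 4 bases after Mir7082 at 1.94%. The site of A330076H08Rik at 3.92% was the only one of the 24 inside a hairpin, that of Mir344g, 2 bases before the mature 5p strand. Further away, 6720427I07Rik had a site at 5.88% between Mirlet7d and Mirlet7f-1, 760 and 955 bases from them, and A330023F24Rik had one at 2.52%, 1691 bases before Mir29b-2 and 2198 before Mir29c. 9530059O14Rik had a site at 16.7%, 4701 bases before Mir138-1. The sites within 200 bases of a hairpin, in Gm28119, Gm25641, Gm38431 and A330076H08Rik, were between 1.33% and 3.92%. Farther off, levels ran from 1.16% in Gm6145 to 16.7% in 9530059O14Rik, so low levels were not particular to the close sites.

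Of the 10 highest levels, 8 stood in single-site loci, which held 558 of the 1059 sites and 46 of the 60 at 20% or more. The pseudogene Gm18336 (chromosome X, position 73398132) had 83.3%, Gm10718 had 1 site at 62.8% and the noncoding RNA Gm49249 (chromosome 15, 8529553) had 60.0%. They were followed by 42.9% in Gm50048, 42.1% in Gm45869, 41.7% in Gm43984, 34.5% in Gm44724, 33.3% in Gm1979 and Gm47428, and 31.3% in Gm20496. Gm43984 lay inside Etv6, and Gm20496 opposite to the proteasome gene Psmb8. The second site of Gm45869 was at 10.0%. Reads of a pseudogene or of a repeated gene can be shared with near-identical copies, so levels in such loci are uncertain.

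The start of the assembled chromosome 9 is one such stretch, known for satellite repeats. From position 3001402 to 3037749 it held 14 sites in 7 Gm loci, all on the plus strand. Besides the 62.8% of Gm10718 the levels were low, and the second highest was 7.62% in Gm10722. The median of all 14 sites was 1.52%. Gm10718 also had sites at 1.06%, 2.09% and 1.03%, and the 4 sites of Gm10717 were at 1.66%, 1.69%, 1.92% and 1.42%. A second stretch of similar genes, the zinc finger cluster of distal chromosome 2 (175130256 to 177834258), held 18 sites in 12 provisional loci with a median of 8.30%. Among them were the coding genes Gm14296, with 11.8%, 3.77% and 8.88%, and Gm14288, with 4.44% and 15.4%, and the pseudogenes Gm14401, with 5.13% and 7.89%, and Gm14418, with 13.3%. The first stretch thus had low levels apart from 2 sites, while the second had none under 3.57%.

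Among the remaining classes, the pseudogene Gm2629 had 3 sites from 1.16% to 2.44% and Gm12184 had 3 from 1.20% to 5.80%. The small nuclear RNA loci had 1 site each, at 8.26% in Gm26244, 3.75% in Gm24497 and 1.07% in Gm22068. The small nucleolar RNA loci Gm25604 and Gm22748 had a site each at 18.2% and 7.69%. The guide RNA locus Gm22728 at 18.2% lies inside G3bp2, a stress granule protein gene, 1131 bases from a site of that gene at 1.09%. Gm26244 likewise lies inside Rock1, Gm22068 inside Tex14 and Gm22748 inside Odc1, all on the strand of the coding gene.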

How the data were processed

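The authors deposited 1 table with 1 editing fraction per site for both libraries; it is given here in percent. Per the series design, sites were called with Bullseye from C-to-U conversion. STAR 2.7.5 and mm10 are named, per the submitters' processing notes. Settings and control of Bullseye, its minimum depth, and how the libraries were combined are not stated in what was used here. The table has 0 value columns of other samples.

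Positions are the 1-based ends of the deposited intervals. Medians, shares, distances and overlaps were counted with Python 3.11.15 and pandas 2.3.3, and the counting was tested on simulated lists. Conventional names exclude Gm, Rik, LOC and accession-like names. Gene strands came from the RefSeq promoter table or the list, which gave the same strand for 5167 of 5167 genes present in both. Sequences are RefSeq's, GRCm38.p6. Named loci were the 20 with the most sites, the 10 highest sites, the extremes of median level among loci with 3 or more sites, the leading loci of each class, the closest neighbours and the tightest groups. Host genes, the chromosome stretches, promoter and microRNA windows were added after the sites were seen. Members and lists were chosen with earlier results of these data known. Of the 8 same-strand neighbours within 1 kb, 1 is not reported here.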

Additional observations from a re-analysis of the deposited data

How the results depend on the processing

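Of 61 recomputed values, 34 stayed within 1.5 times the reported count or within the exact 95% interval of the reported value, and 27 moved out of it. The intervals count sites or loci as independent and are a yardstick only, not a spread between libraries or animals. A higher minimum level raises the median and the share at 10% or more by construction, and a wider window raises the neighbour share. With sites of at least 2% the median level was 7.41%, the share at 10% or more 36.4% and the share with another site within 100 bases 10.2%. With sites of at least 5% there were 598 sites, a median of 10.5%, 55.0% at 10% or more, 87.5% single-site loci, 5.85% with another site within 100 bases, 5.69% with a same-strand neighbour within 10 kb and 65.6% in the last 5 kb. Other sites had medians of 4.76% and 8.33% at these minimums, below the Gm and Rik loci in both cases. Gm names alone had a same-strand neighbour for 11.9% of sites. Rik names alone gave 337 sites, 70.7% single-site loci, 16.0% with another site within 100 bases and 3.56% with a same-strand neighbour. RefSeq-matched loci alone gave 462 sites, a median of 5.28%, 70.3% single-site loci, 15.4% with another site within 100 bases and 3.46% with a same-strand neighbour. Joining sites within 20 bases lowered the share with another site within 100 bases to 7.68%. Other windows gave 0.755% (1 kb) and 33.6% (50 kb) for the neighbour, 5.76% (20 bases) for close sites, 5.67% for levels of 20% or more and 23.4% for the last 1 kb. The median of locus means was 7.69%, against 4.84% for other genes. Adding C130071C03Rik or leaving out sites of 50% or more moved none of the 7 values. No library could be left out, because the list has 1 value per site. No paired analysis was possible because there is 1 group and no column per library.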
